A study of Homo sapiens with 24 samples.

Results

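The chromatin regulators described here are the mRNAs of ATP-dependent remodelers, histone deacetylases and demethylases, and of the acetyltransferases, bromodomain readers, Polycomb subunits and DNA methylation enzymes that work beside them. They were chosen by gene symbol: CHD1 to CHD9, the SMARC genes, KDM1 to KDM6, ARID1, ARID2, ARID4 and ARID5, HDAC and SIRT genes, DNMT1 and DNMT3, TET1 to TET3, EP300, CREBBP, EZH1, EZH2, SUZ12, EED and the BRD genes. The authors' deposited peak table held 325 such peaks in 61 genes, of 24041 peaks in 6088 genes. The cells were 293S, a line derived from human embryonic kidney, either given sodium arsenite (1 mM for 30 min) or left untreated. Ago2 was crosslinked to its RNAs and immunoprecipitated (CLIP), and the LO band libraries, named so in the labels, gave the Ago2-bound miRNAs. The series held 24 samples in 6 groups, which were CLIP, RNA-seq and LO band CLIP with and without arsenite, each with 4 biological replicates. RNA-seq values were not analysed here.

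Chromatin remodelers use ATP to slide, eject or exchange nucleosomes. Deacetylases and demethylases remove marks from histone tails, acetyltransferases and methyltransferases add them, and bromodomain proteins bind acetylated lysines. Ago2 carries miRNAs to mRNAs, where bases 2 to 8 of the miRNA, the seed, pair with the target, most often in the 3' untranslated region (3'UTR). Arsenite is a thiol-reactive stressor that blocks translation initiation. Among chromatin regulators, the mRNA of EZH2 is a well-known target of miR-101.

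The chromatin peaks matched seeds of abundant and of scarce miRNAs. The mature sequences below are those of the most abundant member of each of the 10 families with most matching chromatin peaks, and of 3 further families that matched some of the highest peaks. They come from RefSeq (GRCh38.p14), are written 5′ to 3′, and have the seed in capitals.
miR-16-5p: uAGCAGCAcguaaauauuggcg
miR-17-5p: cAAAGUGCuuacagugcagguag
miR-19b-3p: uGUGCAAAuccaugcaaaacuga
let-7a-5p: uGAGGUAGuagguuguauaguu
miR-30e-5p: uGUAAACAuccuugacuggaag
miR-103a-3p: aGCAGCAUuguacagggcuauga
miR-301a-3p: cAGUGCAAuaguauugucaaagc
miR-708-5p: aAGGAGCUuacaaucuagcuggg
miR-185-5p: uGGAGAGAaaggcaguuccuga
miR-186-3p: gCCCAAAGgugaauuuuuuggg
miR-196b-5p: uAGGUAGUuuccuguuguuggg
miR-378a-3p: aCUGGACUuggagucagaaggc
miR-101-3p: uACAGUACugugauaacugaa
Some of these seeds overlap. The seeds of miR-16-5p and miR-103a-3p share a run of 6 bases, as do those of miR-19b-3p and miR-301a-3p and those of let-7a-5p and miR-196b-5p. The families are named by their usual lead member, so that miR-103 includes miR-107, miR-130 includes miR-301 and miR-28 includes miR-708. Families with overlapping seeds can therefore match the same peak: 3 chromatin peaks matched both miR-15/16 and miR-103, and 5 matched both miR-19 and miR-130, while 0 matched both let-7 and miR-196.

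Each peak had a log average and a log ratio, arsenite over untreated, of normalized CLIP abundance in the authors' deposited table. The log base and the normalizer are not stated, so no fold is given, and the position of 0 on this scale is set by the authors' normalization. All replicates stand behind each single value, so no SD, no test and no depth can be given for any peak, and every difference below is a description of these values. Whether a log ratio reflects Ago2 binding or the amount of the mRNA cannot be told apart where the normalizer is not known. For each gene, the peak of highest log average gave the gene's value. A log ratio of at least 1 is called high and one of at most -1 low.

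Most chromatin mRNAs had more normalized CLIP signal with arsenite, in about the share seen over all genes. The gene values had a median of 1.13 over the 61 chromatin genes and of 1.10 over all 6088 genes. Of the 61 genes, 47 lay above 0 (77.0%, against 79.9% of all genes) and 31 were high (50.8%, against 53.1% of all genes). Only ARID1A was low (1.64%, against 4.52% of all genes). Over peaks, the median was 0.70 for the 325 chromatin peaks and 0.65 for all peaks, and 234 chromatin peaks lay above 0 (72%, against 70.3%). High peaks numbered 126 (38.8%, against 39.1% of all peaks) and low peaks 14 (4.31%, against 7.43% of all peaks). All peaks include 1318 in noncoding exons, a class with no chromatin peak. Those had a median of -0.18, with 42.6% above 0 and 16.9% low. The chromatin mRNAs thus gave shares near the background in the upward direction, and the description below is of how they differed among themselves.

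**Figure D1:**
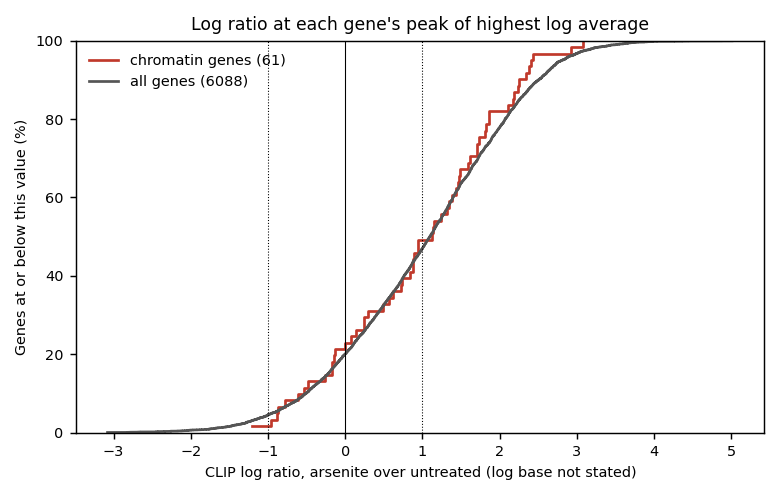
Percentage of genes (y axis) whose log ratio at the peak of highest log average was at or below the value on the x axis (arsenite over untreated, log base not stated), for the 61 chromatin genes in red and all 6088 genes in grey, with dotted lines at -1 and 1. The curves lie close together, with medians of 1.13 and 1.10.

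The chromatin peaks were not rich in signal. Their log averages had a median of -5.98, against -5.18 over all peaks, and 200 of the 325 lay in the upper 75% of all log averages. Whether log averages are divided by length is not stated. Genes carried a median of 3 peaks, against 2 over all genes, and the 3 genes with most peaks (BRD2, ARID1A and CHD4) held 81 of the 325. By region, 153 peaks lay in 3'UTRs (47.1%, against 51.0% of all peaks), 133 in coding sequence (CDS; 40.9%, against 34.5%) and 39 in 5'UTRs (12%, against 9.02%). BRD2 alone held 22 of the 39 5'UTR peaks, so the 5'UTR share rests largely on 1 gene. Shares without BRD2 were not computed. No chromatin peak overlapped a peak of another gene, but peaks of the same gene did overlap. Merging overlapping peaks left 271 of the 325, with 54 merged away. Peak counts in this report take overlapping peaks singly. Of 6 markers of the line, NEFL and VIM had a peak, and of 14 markers of other cell types 0 had one, although a CLIP peak is not an expression level.

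Most subunits of the SWI/SNF (BAF) complexes, the remodelers that evict nucleosomes at enhancers and promoters, had positive log ratios, as did most of all genes. The 14 genes had a median of 1.19, with 10 above 0 (71.4%, against 79.9% of all genes) and 9 high (64.3%, against 53.1%). The highest was SMARCA2, the ATPase BRM, with 2.17 at its only peak, a 3'UTR peak matching miR-19. BRD7, a bromodomain subunit of the PBAF form, had 1.87, and SMARCC1, a core scaffold, 1.81 at a CDS peak matching let-7. For SMARCC1 the median over its 6 peaks was 0.55. The ATPase SMARCA4 (BRG1) had 1.13 at a single CDS peak, about the median of all genes. Between 1.14 and 1.49 lay ARID2, which defines PBAF, the BAF60 subunits SMARCD1, SMARCD2 and SMARCD3, and SMARCE1. SMARCB1, the core subunit lost in rhabdoid tumours, had 0.24 at its only peak, in the 5'UTR.

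The subunits below 0 were ARID1A at -1.21, its paralog ARID1B at -0.53, BRD9 at -0.17 and SMARCC2 at -0.14. ARID1A and ARID1B are the alternative DNA-binding subunits of canonical BAF, and both had their strongest peak in CDS. For BRD9, SMARCC2 and ARID1A the median over all of the gene's peaks was above 0, at 1.09, 0.35 and 0.13. ARID1B had a median of -0.09 over 7 peaks. SMARCD2 was the most uniform of the subunits with many peaks: 13 of its 14 peaks lay above 0, the 3 CDS peaks at 0.37, 2.13 and 3.04, and 10 of 11 3'UTR peaks between 0.51 and 1.97.

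By gene value, the CHD remodelers, chromodomain helicases, had the highest median of the roles with more than 4 genes. Their 7 genes had a median of 2.11, 6 were above 0 and the same 6 were high (85.7%, against 79.9% and 53.1% of all genes). CHD9 had 2.93 and CHD8, which is linked to autism, 2.41, both at peaks that match miR-17. CHD7, mutated in CHARGE syndrome, had 2.18, CHD4, the ATPase of the NuRD complex, 2.11, CHD2 1.73 and CHD1 1.62. CHD3, the paralog that takes the place of CHD4 in NuRD, was the only one below 0, at -0.61. Its 3 CDS peaks had -0.99, -0.61 and 1.60.

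The role's peaks were lower than its gene values, with a median of 1.10 over 48 peaks. The median over each gene's peaks was 0.72 for CHD9, 0.66 for both CHD4 and CHD8, and -0.61 for CHD3, against 0.91 over all genes. It was 1.71 for CHD1, 1.60 for CHD7 and 1.33 for CHD2. By this measure the role did not stand above all genes. CHD1 lay above 0 throughout, with 8 of 8 peaks between 0.71 and 2.60, and 6 of the 8 were high. CHD8, by contrast, ran from -1.70 to 2.41 within CDS. CHD4 ran from -1.33 in the 3'UTR to 2.65 in CDS. CHD9 had 2.93 in its 3'UTR but 0.72 and -0.17 at its CDS peaks.

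Outside SWI/SNF, SMARCA5 (SNF2H), the main ISWI ATPase, had the highest gene value of all 61, at 3.08 in its 3'UTR, and 2.30 at a CDS peak that matches miR-15/16 and miR-19. Its paralog SMARCA1 (SNF2L) had 0.30 and SMARCAD1, an ATPase that helps restore silent chromatin after replication, 0.62. Both SMARCA5 values stood above all 3 peaks of SMARCA1, which were -0.69, 0.30 and 0.82.

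Deacetylase mRNAs sat lower. The 9 genes had a median of 0.49, 6 were above 0 (66.7%, against 79.9% of all genes) and 1 was high (11.1%, against 53.1%). That gene was HDAC9, a class IIa deacetylase, with 2.34 at a 3'UTR peak matching miR-196. HDAC7, of the same class, had 0.95. Of the class I enzymes, HDAC2 had 0.25 and HDAC3, the enzyme of the NCoR complexes, -0.87. Among the NAD-dependent sirtuins, SIRT1 had 0.94, SIRT6 0.56, SIRT7 0.49 and SIRT2, which is mainly cytoplasmic, -0.78.

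HDAC3 had only 2 peaks, and they pointed in opposite directions: -0.87 in the 3'UTR, matching miR-193, and 1.30 in CDS, matching let-7. No HDAC2 peak was high, with 5'UTR peaks at -1.99, -0.39 and 0.25 and CDS peaks at -0.99, 0.08, 0.28 and 0.59. No HDAC2 peak was in the 3'UTR, and none lay in the upper 75% of log averages. Both HDAC10 peaks lay below 0, at -0.01 and -0.39, and they were among the strongest of all chromatin peaks, with log averages of -1.08 and -1.31. The strongest was the SIRT6 3'UTR peak, with a log average of 0.36, which matches miR-33. EZH1 (-2.21) and SIRT7 (-2.77) followed in log average, so 4 of the 5 strongest chromatin peaks were in deacetylase mRNAs. None of these 4 was high, and the EZH1 peak was, at 1.47.

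**Figure D2:**
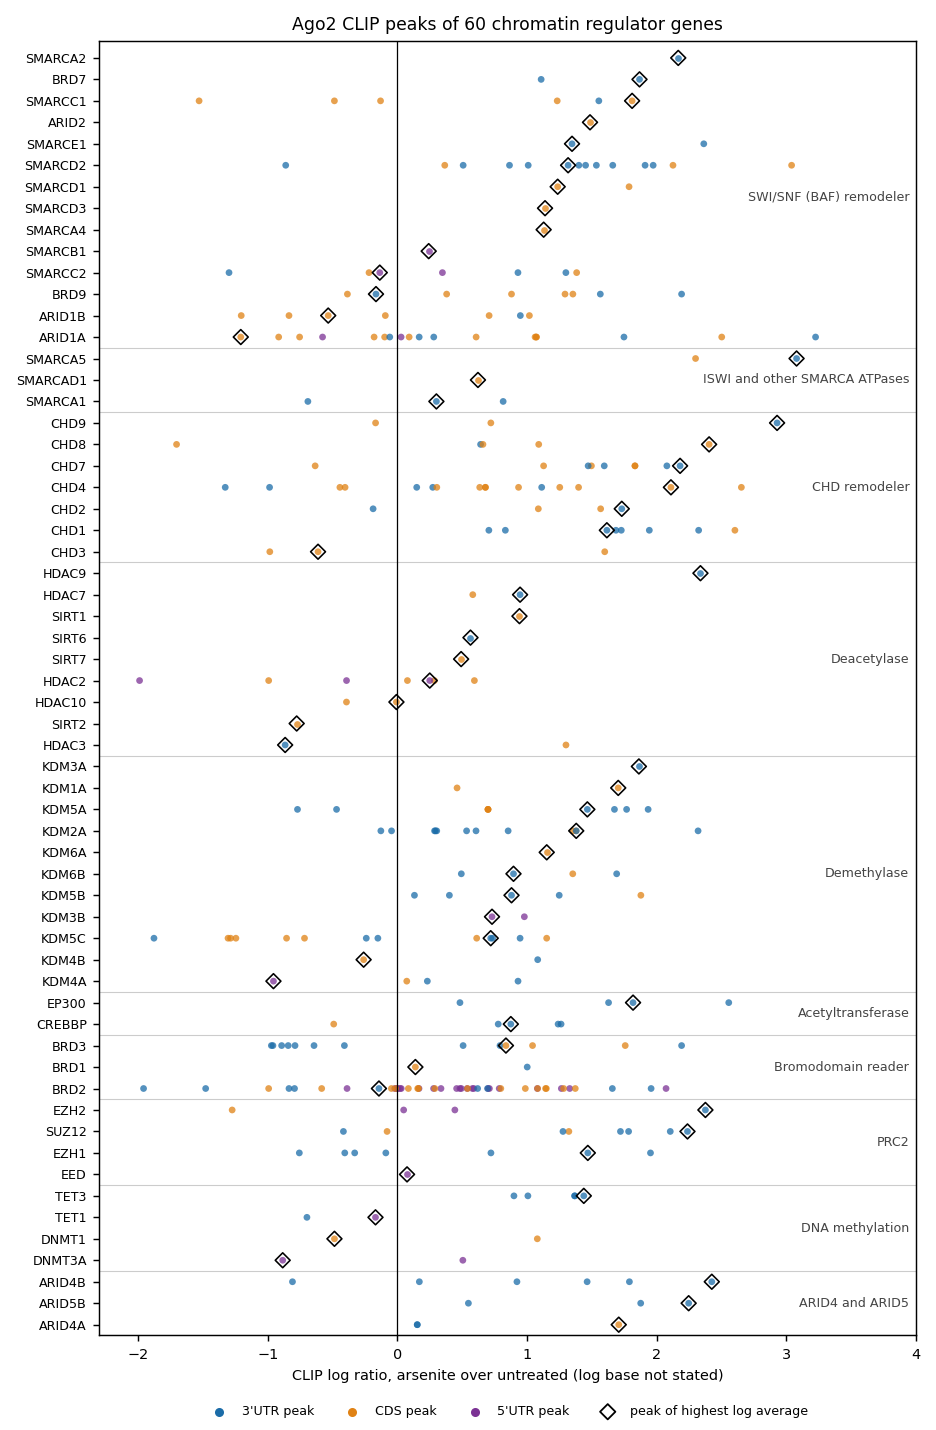
Log ratio (x axis, arsenite over untreated, log base not stated) of 312 chromatin peaks in 60 genes, 1 row per gene, grouped by role and ordered by gene value within a role. Colours give the transcript region, and diamonds mark the peak of highest log average, which lies at 3.08 for SMARCA5 and at -1.21 for ARID1A.

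Demethylase mRNAs spread widely around a median of 0.90 over 11 genes. Of these, 9 were above 0 (81.8%, against 79.9% of all genes) and 5 were high (45.5%, against 53.1%). KDM3A, an H3K9 demethylase, had the highest value, 1.86, at a single 3'UTR peak matching miR-30. KDM1A (LSD1), the amine oxidase that works with CoREST, had 1.70. KDM5A had 1.47, the H3K36 demethylase KDM2A 1.38 and the X-linked H3K27 demethylase KDM6A (UTX) 1.15. KDM6B (JMJD3) had 0.90, KDM5B 0.88, KDM3B 0.73 and KDM5C 0.72. The 2 genes below 0 were both H3K9 and H3K36 demethylases of the KDM4 family, KDM4A at -0.96 and KDM4B at -0.26.

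The KDM5 paralogs, which remove H3K4 methylation, behaved differently along their transcripts. KDM5B had 5 of 5 peaks above 0, from 0.13 to 1.88. KDM5A had 0.70 at its 3 CDS peaks, which share identical values in the table, and 4 of 6 3'UTR peaks between 1.47 and 1.93. In KDM5C only 2 of 7 CDS peaks lay above 0, with a median of -0.86, and its 3'UTR held both a low peak at -1.88 and peaks at 0.72, 0.73 and 0.95. KDM5C had a median of -0.24 over its 13 peaks, against a gene value of 0.72.

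The peaks of KDM4A and KDM4B lay on both sides of 0. KDM4A had -0.96 in the 5'UTR, 0.07 in CDS and 0.23 and 0.93 in the 3'UTR. KDM4B had -0.26 in CDS and 1.08 in the 3'UTR.

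The paired acetyltransferases EP300 (p300) and CREBBP (CBP) were both above 0. EP300 had 1.82, and its 4 peaks, all in the 3'UTR, had 0.48, 1.63, 1.82 and 2.56. CREBBP had 0.87, with 4 3'UTR peaks between 0.78 and 1.26 and 1 CDS peak at -0.49.

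BRD1, BRD2 and BRD3 had gene values below the median of all genes. The bromodomain subunits BRD7 and BRD9, placed above with SWI/SNF, had 1.87 and -0.17. BRD1, BRD2 and BRD3 are only part of the bromodomain readers and do not describe them as a whole. BRD3 had 0.84, BRD1, a scaffold of the HBO1 and MOZ acetyltransferase complexes, 0.14, and BRD2 -0.14.

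In BRD3 and BRD2, which bind acetylated histones on active chromatin, the 3'UTR peaks had lower medians than the CDS peaks, while 17 of the 30 genes with both kinds of peak had the opposite order. In BRD3 the 3'UTR median was -0.72, with 3 of 10 peaks above 0, and the 3 CDS peaks had 0.84, 1.04 and 1.76. Its single high 3'UTR peak, 2.19, matched both miR-15/16 and miR-378a-3p. BRD2 had a 3'UTR median of -0.14 with 4 of 9 above 0, a CDS median of 0.41 with 12 of 16 above 0, and a 5'UTR median of 0.49 with 19 of 22 above 0.

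Along the 3'UTR of BRD2 the first 4 peaks lay below 0: from 5' to 3' the 9 values were -0.84, -1.48, -1.96, -0.79, 1.96, 1.66, 0.62, 0.70 and -0.14. Of the last 5, only the final one lay below 0. ARID1A showed a different course. Its first 5 CDS peaks had -1.21, -0.18, -0.76, -0.92 and -0.10, the next 6 had 0.09, 0.61, 1.07, 1.07, 2.50 and 1.06, and the 3'UTR held -0.06, 3.23, 0.28, 1.75 and 0.17. The 2 peaks at 1.07 share identical values in the table. The 2.50 peak matched miR-103, the 1.06 peak miR-31 and the 1.75 peak miR-340.

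**Figure D3:**
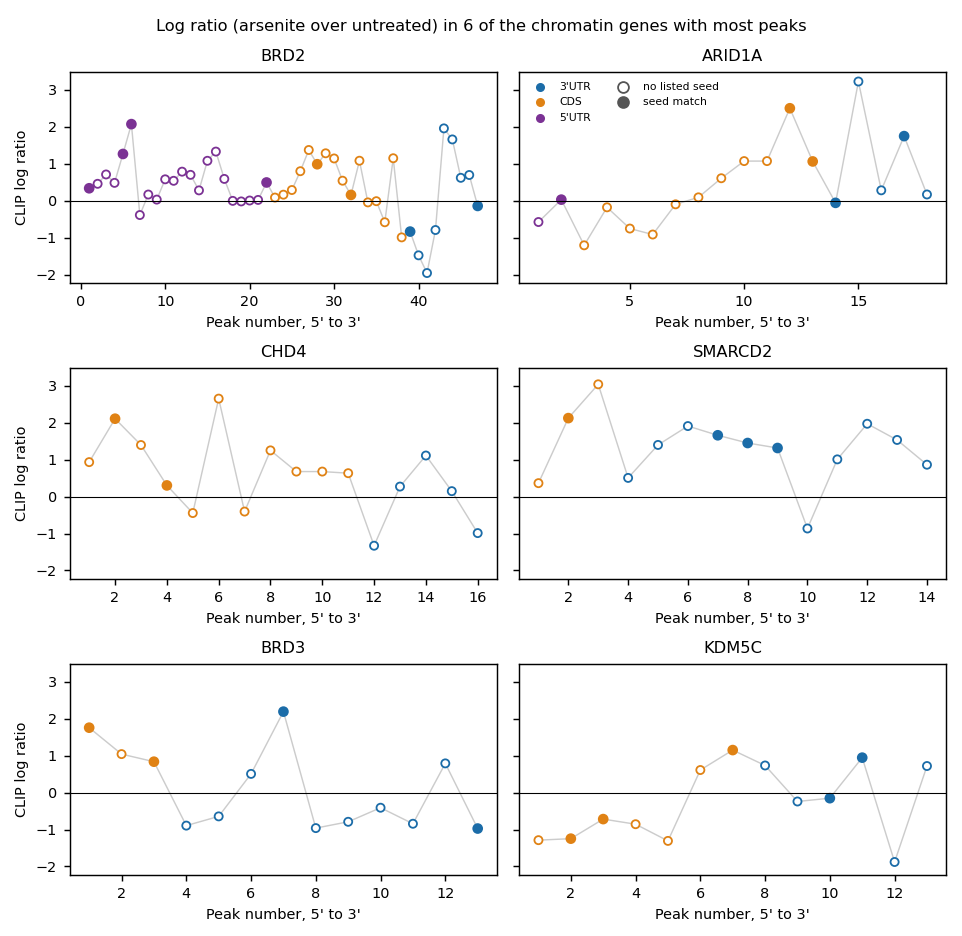
Log ratio (y axis, arsenite over untreated, log base not stated) of each peak in 5' to 3' genomic order along the strand (x axis, peak number) in 6 of the chromatin genes with most peaks. Filled points match a listed seed and open points do not, and colours give the region. In ARID1A the lowest value, -1.21, is the first CDS peak and the highest, 3.23, lies in the 3'UTR.

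The core of Polycomb repressive complex 2, which methylates H3K27, was above 0 in all 4 genes (79.9% of all genes were). Of the 4, 3 were high (75%, against 53.1% of all genes). EZH2, its catalytic subunit, had 2.38, SUZ12, which holds the complex together, 2.24, and EZH1, the second catalytic subunit, 1.47. EED, the subunit that reads H3K27 methylation, had 0.07 at its only peak, in the 5'UTR. The EZH2 value came from a 3'UTR peak with a miR-101 match (hg19, chromosome 7, 148504611 to 148504652), the miRNA named above for this mRNA. The other EZH2 peaks had 0.44 and 0.05 in the 5'UTR and -1.28 at a CDS peak matching miR-29.

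SUZ12 was high along its 3'UTR, with 5 of 6 peaks between 1.28 and 2.24 and the other at -0.42. EZH1 was mixed: its strongest 3'UTR peak, matching miR-17, had 1.47, and another had 1.95, but 4 of its 7 peaks lay between -0.76 and -0.09. One of those 4, at -0.41, matched both miR-15/16 and miR-103.

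DNA methylation enzymes split by gene. TET3, a dioxygenase that oxidises 5-methylcytosine, had 1.44 and 5 of 5 3'UTR peaks from 0.90 to 1.44. TET1, of the same family, had -0.17 in the 5'UTR and -0.70 in the 3'UTR. The maintenance methyltransferase DNMT1 had -0.49, with 1.08 at its other CDS peak, and the de novo enzyme DNMT3A had -0.89 and 0.50 at 2 5'UTR peaks. The gene median was -0.33 and the peak median 0.90, since TET3 held 5 of the 11 peaks.

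All 3 ARID4 and ARID5 genes were high, as were 53.1% of all genes. ARID4B, a subunit of the SIN3 deacetylase complex, had 2.43 at a peak matching miR-30, ARID5B, a partner of the demethylase PHF2, 2.25 at a peak matching miR-30 and miR-186-3p, and ARID4A, the paralog of ARID4B, 1.71 at a CDS peak matching miR-17.

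Within single chromatin genes the peaks often had opposite signs. The counts of signs given here were not made over all genes, so whether they differ from the background is not known. Of the 47 genes with at least 2 peaks, 15 had all peaks above 0, 2 had all below 0 (HDAC10 and TET1) and 30 had peaks on both sides. The 15 were ARID4A, ARID5B, BRD1, BRD7, CHD1, EP300, HDAC7, KDM1A, KDM3B, KDM5B, KDM6B, SMARCA5, SMARCD1, SMARCE1 and TET3. Both a high and a low peak were found in 9 genes: ARID1A, ARID1B, BRD2, CHD4, CHD8, EZH2, KDM5C, SMARCC1 and SMARCC2. In 12 genes the gene value and the median over the gene's peaks had opposite signs. With that median in place of the strongest peak, the median over the 61 genes was 0.66, against 0.91 over all genes, so the closeness to all genes at the strongest peak did not extend to this measure. Of the 14 genes with a single peak, 13 lay above 0 and SIRT2 below.

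Region went with the log ratio. In 3'UTRs 114 of 153 chromatin peaks lay above 0 (74.5%, against 76.2% of all 3'UTR peaks), 69 were high (45.1%, against 45.8%) and 5 low (3.27%, against 5.75%). The chromatin medians were 0.90 in 3'UTRs, 0.66 in CDS and 0.28 in 5'UTRs, beside 0.88, 0.58 and 0.25 over all peaks. Of the 39 chromatin 5'UTR peaks BRD2 held 22, with a median of 0.49, so the 5'UTR median rests largely on BRD2. The chromatin genes were also split by the region of their strongest peak, which was not done over all genes. The 30 genes whose strongest peak lay in the 3'UTR had a median gene value of 1.47, and 27 were above 0. For the 23 genes with that peak in CDS the median was 0.94, with 16 above 0, and for the 8 with it in the 5'UTR -0.03, with 4 above 0. Within genes the order was less regular: over 30 genes with both kinds of peak, the 3'UTR median minus the CDS median was 0.34 at the median and above 0 in 17. It ran from -2.17 in HDAC3 to 3.65 in EZH2.

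Chromatin peaks with a listed 7-nucleotide seed match had higher log ratios than those without. A match to any of the 50 listed families was present in 92 of 325 peaks (28.3%, against 31.5% of all peaks), in 43 of the 61 genes. The median was 1.26 with a match and 0.51 without, a difference of 0.76. Over all peaks, noncoding exons included, it was 1.06 and 0.48, a difference of 0.57. In 3'UTRs the medians were 1.37 over 51 peaks with a match and 0.70 over 102 without. In CDS they were 1.10 over 34 and 0.58 over 99, and in 5'UTRs 0.49 over only 7 and 0.25 over 32. Peaks matching 1 family had a median of 1.15 (71 peaks) and those matching 2 or more a median of 1.35 (21 peaks).

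**Figure D4:**
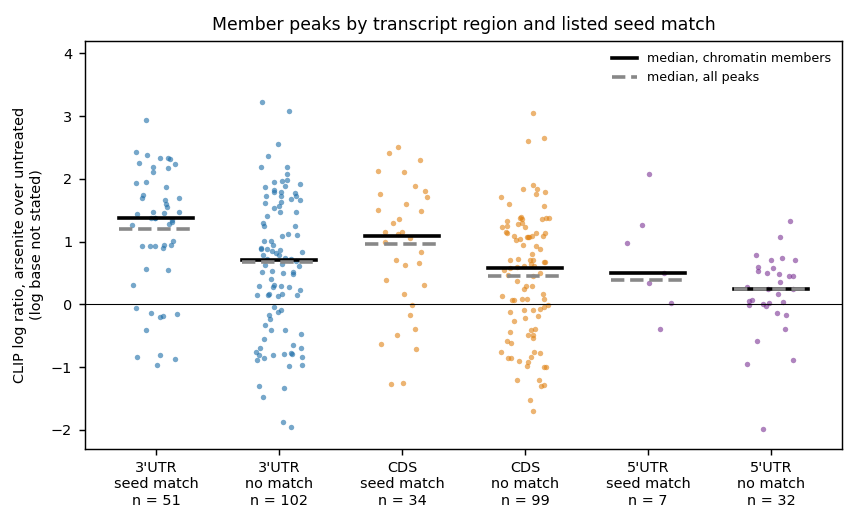
Log ratio (y axis, arsenite over untreated, log base not stated) of chromatin peaks with and without a listed seed match in each transcript region; points are peaks, spread sideways at random, solid bars are their medians and dashed bars the medians of all peaks in that class. The medians of matched peaks are 1.37 in 3'UTRs, 1.10 in CDS and 0.49 in 5'UTRs, each above that of unmatched peaks.

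The difference was smaller within the same gene and region. There, 40 pairs of matched and unmatched medians in 30 genes gave a median difference of 0.40, against 0.25 over 2654 pairs in all genes, and 30 of the 40 were above 0, against 1599 of the 2654. The largest were in CDS, at 2.12 in SMARCC1, 1.88 in ARID1A and 1.84 in CHD8. The SMARCC1 difference set 1 matched peak against 4 unmatched, and no peak of SMARCC1 lay in the upper 75% of log averages. The opposite order was largest in the 3'UTR of CHD2 (-1.92), where the miR-19 peak had -0.19 and the unmatched peak 1.73. The CDS of DNMT1 (-1.57) and BRD9 (-1.30) followed. In CHD2 and DNMT1 the difference set 1 matched peak against 1 unmatched. No peak of CHD2 or DNMT1 lay in the upper 75% of log averages. Both matched BRD9 peaks belonged to the miR-28 family.

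Shorter peaks also had higher log ratios. Chromatin peaks of at most 42 nucleotides had a median of 1.09 (115 peaks), those of 43 to 59 nucleotides 0.69 (104) and those of 60 or more 0.24 (106), beside 1.02, 0.62 and 0.36 over all peaks. Of the longest class 31.1% lay in 3'UTRs, against 53.9% of the shortest, while the shares with a seed match were 29.2% and 28.7%. The part of length in the region medians was not tested.

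Of the 50 families, 37 matched at least 1 chromatin peak, and the 10 with most matches covered 62 of the 92 matched peaks. All 9 miR-17 peaks lay above 0, with a median of 1.47 (1.67 over all peaks of that family), from 0.92 in ARID4B to 2.93 in CHD9. All 9 miR-30 peaks did too, with a median of 1.76 (1.60 over all), led by ARID4B at 2.43, CHD1 at 2.32 and ARID5B at 2.25. Of 9 miR-19 peaks 8 were above 0, with a median of 1.88 (1.57 over all), led by KDM2A at 2.32 and SMARCA5 at 2.30, and all 7 miR-130 peaks were, with a median of 1.32 (1.55 over all).

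The let-7 matches lay mostly in CDS: 8 of 9 were there, in SMARCD2, SMARCC1, CHD7, ARID2, KDM6B, HDAC3 and KDM6A, and the other in the 3'UTR of TET3. The share in CDS was not computed over all 350 let-7 peaks. The 9 chromatin peaks had a median of 1.35 (1.42 over all), and only 1 of the 2 CHD7 peaks lay below 0, at -0.64. The miR-15/16 family had most matches, 12 in 10 genes, with a median of 1.34 (0.92 over all) and 10 above 0, while 8 miR-103 peaks ran from -1.25 in KDM5C to 2.50 in ARID1A, with a median of 0.75 (1.23 over all).

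Near 0 were miR-28, with 5 peaks and a median of -0.01 (0.21 over all), in SMARCC2, BRD9, HDAC10 and KDM5C, and miR-185, with 4 peaks and a median of -0.02 (0.27 over all), in KDM5C, ARID1A and HDAC2. None of these 9 peaks was high. The 4 miR-186-3p peaks, in ARID5B, BRD2 and SMARCD2, had a median of 1.69 (0.57 over all) and all were high. The BRD2 peaks among them overlap, and all but the BRD2 peak at 2.07 also matched other families. Families matched the same peaks in part, and single families rest on few peaks, so these orders are descriptions only.

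**Figure D5:**
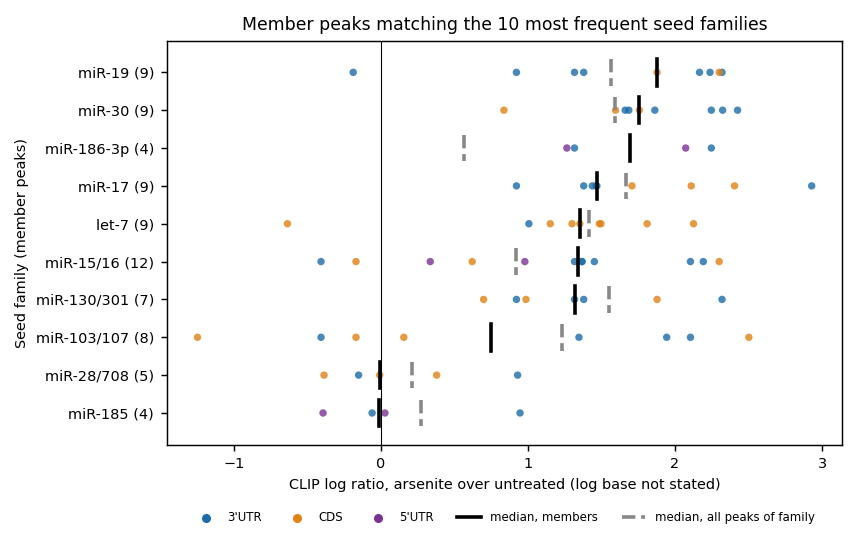
Log ratio (x axis, arsenite over untreated, log base not stated) of the chromatin peaks matching each of the 10 families with most matches, with the number of chromatin peaks in brackets; points are coloured by region, solid bars are chromatin medians and dashed bars the medians of all peaks of the family. The chromatin medians run from 1.88 for miR-19 to -0.02 for miR-185.

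No miRNA behind these matches passed the DESeq threshold between treatments. The adjusted p was under 0.05 for 0 of the 1213 entries of the authors' deposited miRNA table, and the unadjusted p for 24. The 10 families held 48.1% of the mature miRNA signal. In the authors' deposited table, miR-30e-5p had a mean of 1784402 with arsenite and 2014629 without (log2 fold change -0.18), miR-16-5p 1016984 and 1001623 (0.02) and miR-17-5p 444032 and 449539 (-0.02). For miR-708-5p the authors' deposited table gave 238666 with arsenite and 334495 without (-0.49), and for miR-185-5p 58199 and 71524 (-0.30), both with an adjusted p of 1 by DESeq. For miR-186-3p, whose few chromatin peaks were all high but mostly matched other families too, the authors' deposited table gave 21290 and 25968 (-0.29). In that table let-7a-5p had 21593 and 19128 (0.17) and miR-101-3p 426851 and 474411 (-0.15). A p that misses the threshold does not show that these amounts were equal.

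Among chromatin peaks in the upper 75% of log averages, 1 per gene, the 12 highest were mostly 3'UTR peaks with a seed. Neither this set nor that of the 12 lowest was drawn over all genes. Over all 3'UTR peaks the median was also higher with a match (1.20) than without (0.68). Of the 12 highest chromatin peaks, 10 lay in 3'UTRs and 9 had a match. The highest was the unmatched ARID1A 3'UTR peak at 3.23 (hg19, chromosome 1, 27107933 to 27107975), followed by SMARCA5 at 3.08 (chromosome 4, 144474283 to 144474340) and a CDS peak of SMARCD2 at 3.04 (chromosome 17, 61914391 to 61914404), also unmatched. The other 9, all with a match, were CHD9, ARID4B, CHD8, EZH2, HDAC9, KDM2A, ARID5B, SUZ12 and BRD3, from 2.93 to 2.19. HDAC9 lay at chromosome 7, 18708246 to 18708281, and the KDM2A peak at 2.32, matching miR-130 and miR-19, at chromosome 11, 67023928 to 67023965.

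Of the 12 lowest, 6 lay in 3'UTRs, 4 in CDS and 2 in 5'UTRs, and 9 had no match. They ran from the KDM5C 3'UTR peak at -1.88 (chromosome X, 53221719 to 53221752) and the BRD2 3'UTR peak at -1.48 to SMARCD2 at -0.86, and those between included SMARCC2, EZH2, ARID1A, ARID1B, BRD3, KDM4A, DNMT3A and HDAC3. The ARID1A peak at -1.21 was the first of its CDS (chromosome 1, 27022894 to 27022973). The matched peaks among the 12 belonged to miR-193 in BRD3 and HDAC3 and to miR-29 in EZH2. ARID1A, EZH2, BRD3 and SMARCD2 appear in both sets of 12.

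Of 5 lists of further chromatin proteins, 77 genes had a peak, with a median of 1.12, beside 1.13 for the 61 genes. Above 0 lay 68 of the 77 (88.3%, against 77.0% of the 61 genes and 79.9% of all genes), 40 were high (51.9%, against 50.8% and 53.1%) and 0 were low. The 24 other writers had a median of 1.31, from PRMT5, an arginine methyltransferase, at -0.81 to SUV420H1, an H4K20 methyltransferase, at 3.08. The 19 other remodeler genes had 1.14, from BAZ2A at -0.46 to DPF2, a BAF subunit, at 3.62. The 17 partners of deacetylases and demethylases had 0.79, from PHF8 at -0.24 to SAP30L at 2.42, and 5 were high. All 13 other Polycomb genes were above 0, from CBX6 at 0.23 to PCGF3 at 2.63, with a median of 1.24. The 4 methyl-CpG readers had 0.57, from MBD1 at -0.81 to ZBTB33 (Kaiso) at 1.17.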

How the data were processed

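The labels describe 24 CLIP, RNA-seq and LO band CLIP samples of 293S cells. Build hg19 and the tools Bowtie 0.12.8, TopHat and DESeq are listed, without roles, per the submitters' processing notes. Neither the peak caller nor the CLIP normalizer is named in these sources. The log average and log ratio per peak, the region and the seed matches are the authors' deposited values, with the log base not stated per the file headers. The miRNA means are deposited signal values (read counts over size factors, averaged by the authors), with the authors' ratio (fold), log2 ratio, p-value and adjusted p-value. Columns with values of single samples numbered 0, so the CLIP depth is unknown and no replicate test was possible.

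From these, medians, counts and differences of medians were computed with Python 3.11.15, pandas 2.3.3 and NumPy 2.4.6, and the code was tested on simulated data. Roles were assigned by symbol. Peaks sharing both values with another peak of their gene numbered 563 (13 in chromatin genes) and were kept. Genes described in detail were the highest and lowest of each role, the 12 highest and 12 lowest peaks (1 per gene, upper 75% of log averages), the 10 genes with most peaks, the 5 strongest peaks, the 10 families with most matches and the ends of each further list. The other genes are named with a value or in a counted range. Of these, 1 gene is counted in the totals but not reported by name here. The members and lists were chosen with earlier results of these data known. Coordinates are those deposited, with the base of the starts not stated.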

Additional observations from a re-analysis of the deposited data

How the results depend on the processing

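No paired analysis was possible because every peak and miRNA has a single value in which the replicates are already combined, and for the same reason no replicate could be left out. The median over chromatin peaks was 0.90, in place of 0.70, when only 3'UTR peaks were used (0.88 over all 3'UTR peaks), and the median over chromatin genes was 0.66, in place of 1.13, when a gene was given by the median of its peaks (0.91 over all genes). The share of high genes, 50.8% at a size of 1, was 18.0% at a size of 2 (22.1% of all genes), 67.2% at 0.5 (67.6% of all genes) and 29.5% after centring on the median of all peaks (31.9% of all genes). With the median of a gene's peaks it was 37.7% (46.9% of all genes). Counts of high genes therefore depend on the size and the zero point chosen. With overlapping peaks merged, the peak median was 0.72 for the chromatin peaks and 0.72 over all peaks. For some other settings the chromatin genes had the higher value. The gene median was 1.44 among genes with at least 3 peaks (1.07 over all such genes). The peak median was 0.80 without the 3 chromatin genes with most peaks (0.66 over all peaks without them). The cause of the lower median over each gene's peaks was not tested. The seed difference was 0.40 within gene and region, against 0.76 without regard to gene. Without BRD2 the peak median was 0.72, and with identical values counted once 0.67, both chosen after seeing the data.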
